A study of Homo sapiens with 24 samples.

Results

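The miR-369-3p mimic was set against the non-targeting (NT) control mimic in MDA-MB-231 cells, a human line of metastatic, hormone receptor-negative breast cancer, across all probes that were detected on both arrays of either group. Detection means a detection p-value under 0.05, that is, a bead signal above that of nearly all negative control beads of the same array. The rule kept 19999 of the 47309 probes of the Illumina HT12v4 array. Of these members, 17895 were detected in both groups, 775 in the mimic group alone and 1329 in the NT control group alone. A gene symbol of their own was carried by 15397 members, and taking the brightest probe of each gene gave 11447 member genes.

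The groups were cells forward transfected with the miR-369-3p mimic at 50 nM and cells given the NT control mimic at 50 nM, both in serum-containing medium and both harvested at 48 h, with 2 arrays each. The NT control mimic carried a fluorescent label that the study used to follow transfection, and no untransfected group was among the arrays. The other 20 arrays, 2 per group, hold mimics of miR-655-3p, miR-410, miR-127-5p, miR-544a and miR-135a and inhibitors of miR-369-3p, miR-655-3p, miR-410, miR-544a and miR-135a, at the same dose and time. They served here as further sets of transfected cells: a mimic is a synthetic double-stranded RNA that acts as the mature microRNA, and an inhibitor is a synthetic strand that binds it.

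A microRNA guides an Argonaute protein to messenger RNAs that pair with its seed, the short stretch near its 5′ end, and the bound messages are translated less and decay faster. A transfected mimic is therefore expected to lower its direct targets, while other genes follow indirectly. The miR-369 and miR-655 genes lie in the large imprinted microRNA cluster of chromosome 14 at 14q32, which is also the home of miR-410, miR-127 and miR-544a, and the study asked what the microRNAs of this cluster do to the adhesion, invasion and motility of tumor cells.

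The mature sequences below are shown because the miR-369-3p mimic shared most of its 5′ part with 1 other mimic of the series. Capitals mark the seed, bases 2 to 8. The miR-369-3p bases come from chr14:101065641-101065661 and the miR-655-3p bases from chr14:101049610-101049631, both on the plus strand (RefSeq, GRCh38.p14).
miR-369-3p: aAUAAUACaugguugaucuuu
miR-655-3p: aUAAUACAugguuaaccucuuu
miR-410-3p: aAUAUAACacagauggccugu
Bases 2 to 14 of miR-369-3p are identical to bases 1 to 13 of miR-655-3p, so that the 2 seeds are the same letters shifted by 1 base. The miR-410-3p strand, whose gene neighbours miR-369 on the plus strand, shares a run of 4 bases with miR-369-3p. The labels do not give the arm of the miR-410 mimic.

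The median signal over all probes was 101.7 to 123.1 on the 24 arrays, and 19754 to 21286 probes were detected. Log2 signals of the 2 arrays of a group correlated at 0.9886 to 0.998 across probes (0.998 for the miR-369-3p mimic and 0.9979 for the NT control). At the detection threshold the last probe inside, at a detection value of 0.04935, had deposited signals of 126.9 and 118.6 on the mimic arrays, against 127.7 and 117.1 on the NT control arrays. The first probe outside, at 0.05065, had 124.3 and 124.5 on the mimic arrays, against 120 and 110.2 on the NT control arrays. Of 12 markers of MDA-MB-231 cells, 11 were detected in both groups, among them VIM, CD44, AXL and CAV1, and SPARC was not. The luminal markers ESR1, FOXA1, CDH1, AGR2, TFF1 and TFF3, the leukocyte marker PTPRC and the vascular markers CDH5 and VWF were detected on none of the 4 arrays. However, 7 of the 14 luminal markers were members, and GATA3, KRT8, KRT18, KRT19 and XBP1 were detected on all 4 arrays. Of 11 leukocyte and 11 endothelial and fibroblast markers, 6 and 4 were members, of which CD14 and PECAM1 fell. Whether the duplicate arrays stem from independent cultures is not given in the labels. Every p-value here reflects the spread between duplicate arrays, pooled over the 12 groups, which may be technical. The labels give no chip or scan, whose part in the results was not tested.

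Against the NT control, 630 member probes fell and 527 rose with the miR-369-3p mimic (3.15% and 2.64% of members). A call needed a limma adjusted p under 0.05 over all 22803 tested probes and a fold of at least 1.4. Over all 22803 tested probes these counts are 2.76% and 2.31%. Of member genes, 3.22% fell and 3.13%, or 358, rose, and the median log2 fold change over member genes was 0.009. Of the 1329 members detected only in the NT control, 54 fell, and of the 775 detected only with the mimic, 32 rose. Detection on 1 side only favors a difference in that direction. The remaining 576 and 495 called probes were detected in both groups. Without 1 of the 4 arrays, 229 to 292 probes fell and 238 to 280 rose: 229 and 238 without mimic replicate 1, 292 and 280 without mimic replicate 2, 269 and 260 without NT replicate 1, and 234 and 264 without NT replicate 2. Under median scaling in place of quantile normalization, 139 fell and 194 rose, so that falls were 41.7% of calls, against 54.5% with quantile normalization.

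**Figure D1:**
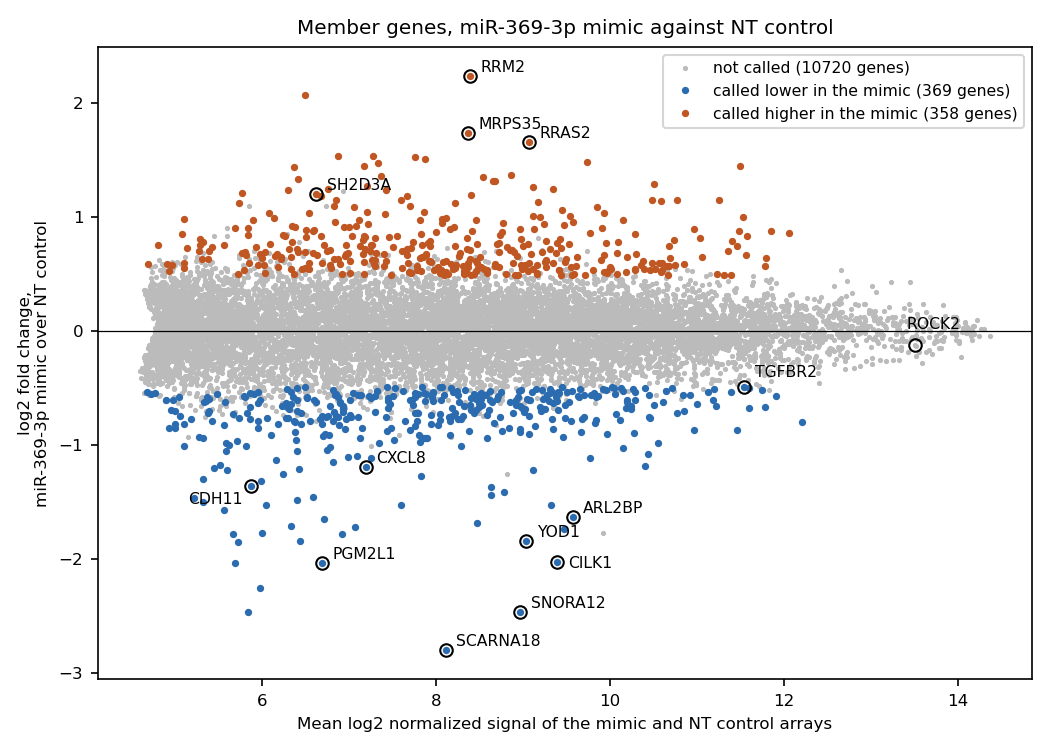
Log2 fold change of the miR-369-3p mimic over the NT control (y axis) against the mean log2 normalized signal of the 4 arrays (x axis) for the 11447 member genes, with 14 named genes circled. The genes that fell and the 358 that rose lie at all signal levels up to a log2 signal of about 12, and ROCK2, among the brightest genes, lies near 0.

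The level of each called gene was also set beside the 5 inhibitor groups. Of the genes that fell, the NT control was above all 5 inhibitor groups for 303 (82.1%), and the mimic was below all 5 for 193 (52.3%). Of the 358 that rose, the NT control was below all 5 inhibitor groups for 293 (81.8%), and the mimic above all 5 for 167 (46.6%). Over all member genes the NT control was above all 5 for 24.4% and below all 5 for 22.7%, and the mimic below for 18.4% and above for 20.6%. Being called raises these shares for both groups, so they are given as a description. Measured against the 5 inhibitor groups, 247 member genes fell and 267 rose (2.16% and 2.33%), and against the 5 other mimics 273 fell and 211 rose (2.38% and 1.84%). Only 67 member probes fell and 27 rose against the NT control, the inhibitor groups and the other mimics alike (0.335% and 0.135% of members), which is 39 genes that fell and 13 that rose (0.341% and 0.114% of member genes). Without mimic replicate 1 these probe counts were 32 and 11, without mimic replicate 2 they were 35 and 12, and without either NT replicate 13 probes rose.

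The genes that the study singled out behaved in different ways. CILK1 (named ICK in the study), a kinase that controls the length of the primary cilium, gave 342 and 327 on the mimic arrays, against 1332 and 1385 on the NT control arrays. It fell by 2.02 on the log2 scale (SE 0.14, limma adjusted p = 1.07e-06), and it also fell against the inhibitor groups, whose levels were 765 to 987 (log2 fold change -1.41). Its fainter probe fell as well, by 0.99. TGFBR2, the type II receptor of TGF-beta, gave 2450 and 2594 on the mimic arrays, against 3499 and 3598 on the NT control arrays, a log2 fold change of -0.49 (SE 0.14, limma adjusted p = 0.0419). A second bright probe fell by 0.77 (limma adjusted p = 0.000276), and a dim one was not called (-0.06). The direction of TGFBR2 depended on what the mimic was set against. The inhibitor groups stood at 1441 to 1809, below both, and against them TGFBR2 was higher with the mimic (log2 fold change 0.67, limma adjusted p = 0.00098), as it was against the other mimics (0.67). The call against the NT control was lost whichever of the 4 arrays was left out (log2 fold change -0.53 to -0.45).

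ROCK2, a kinase that contracts the actin cytoskeleton, gave 10789 and 11477 on the mimic arrays, against 11946 and 12341 on the NT control arrays, and was not called on its brightest probe (log2 fold change -0.13, limma adjusted p = 0.539). A second, fainter ROCK2 probe was called lower (-0.94, limma adjusted p = 0.00284), so that the 2 probes of this gene disagree. CDH11, a cadherin of mesenchymal cells, was dim, at 41.3 and 32.2 on the mimic arrays, against 86.4 and 101 on the NT control arrays (log2 fold change -1.36, SE 0.22, limma adjusted p = 0.00127). The inhibitor groups read 26.6 to 35.9 for CDH11 and the other mimics 21.8 to 51.0, so that here the NT control was the group that stood apart.

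**Figure D2:**
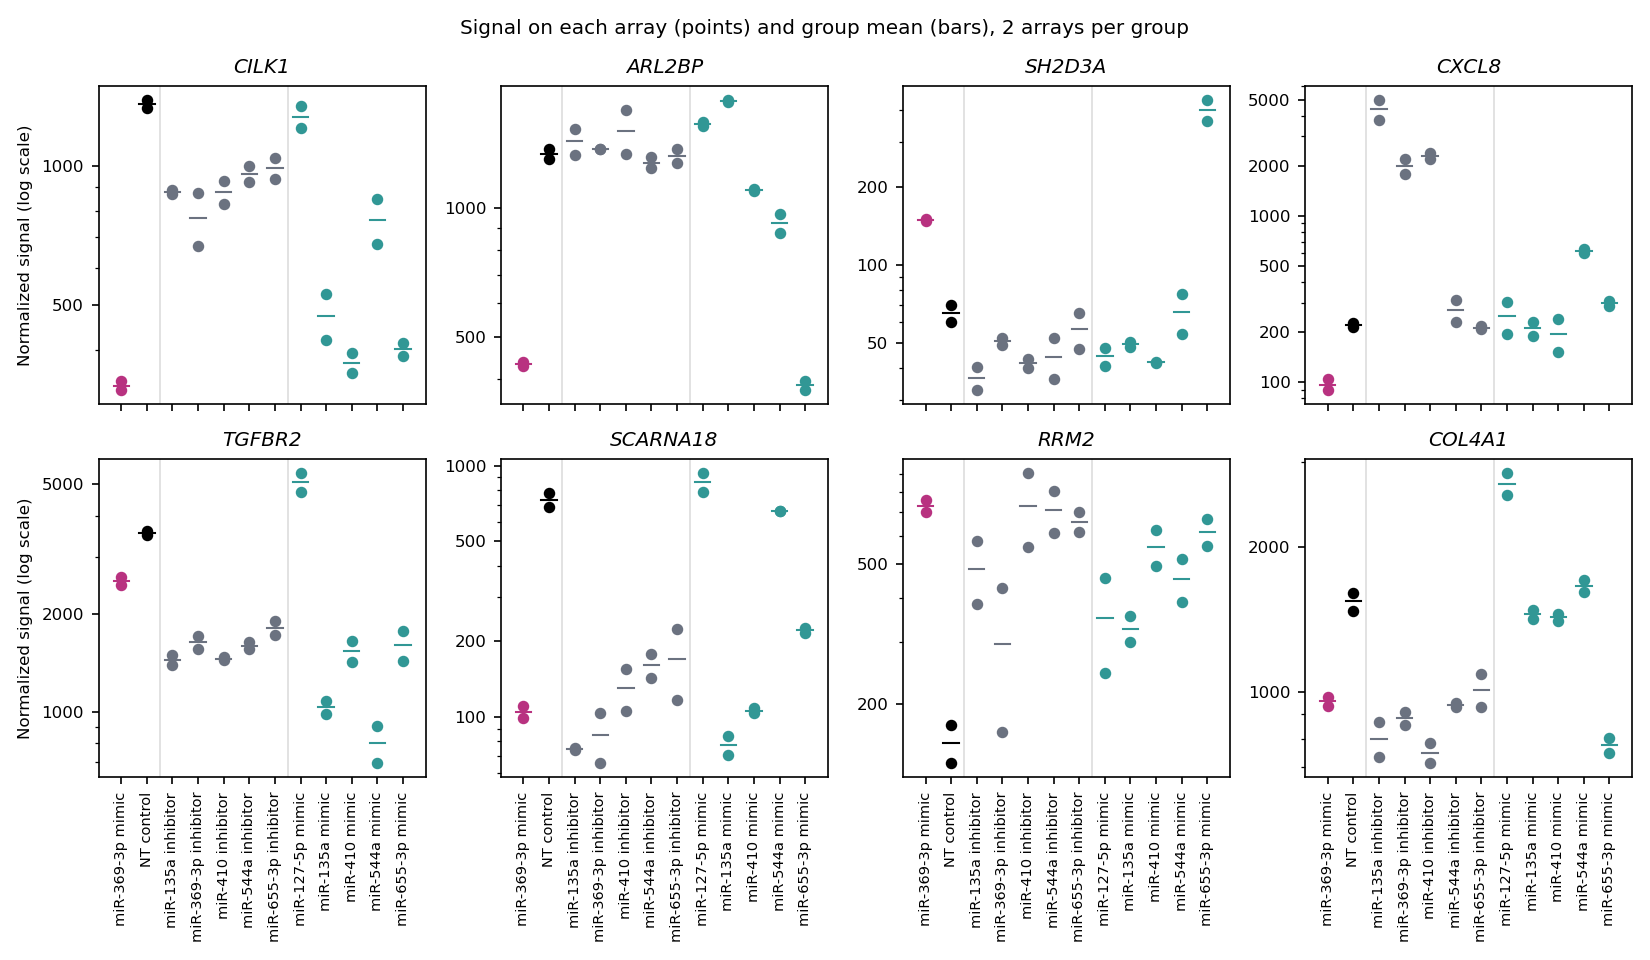
Normalized signal (log scale) of 8 genes on each array (points) with the group mean (bars), for the miR-369-3p mimic, the NT control, the 5 inhibitor groups and the 5 other mimics, 2 arrays each. For CILK1 and CXCL8 the miR-369-3p mimic is the lowest group, ARL2BP is low and SH2D3A high with both the miR-369-3p and the miR-655-3p mimic, and for RRM2 the NT control is the lowest group, at a mean of 155.

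Among the genes that fell against all 3 sets of arrays was ARL2BP, a partner of the small GTPase ARL2. It gave 437 and 429 on the mimic arrays, against 1375 and 1305 on the NT control arrays, 1278 to 1510 over the inhibitor groups and 386 to 1780 over the other mimics. It fell by 1.63 against the NT control (SE 0.11, limma adjusted p = 8.99e-07) and by 1.67 against the inhibitor groups. Only the miR-655-3p mimic, at 376 and 396, was as low. CPOX, an enzyme of heme synthesis, gave 337 and 447 on the mimic arrays, against 1163 and 1431 on the NT control arrays, and fell by 1.73 against the NT control, 1.37 against the inhibitor groups and 1.21 against the other mimics. PGM2L1, which makes glucose 1,6-bisphosphate, gave 50.8 and 51.2 on the mimic arrays, against 199 and 220 on the NT control arrays, with inhibitor groups at 87.1 to 98.1. CPOX was thus lower with the miR-369-3p mimic than in any other group, while for PGM2L1 the miR-410 mimic was as low, at 49.0 and 42.1. The deubiquitinase YOD1 fell by 1.84 against the NT control and by 0.54 against the inhibitor groups, the membrane protein gene TMEM45A by 1.78 and 0.98, and RAB8B, a GTPase of vesicle traffic, by 1.68 and 1.07.

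These 39 genes also held several receptors and ligands. HEG1, a membrane glycoprotein of cell junctions, gave 339 and 419 on the mimic arrays, against 1114 and 1064 on the NT control arrays and 673 to 790 over the inhibitor groups, and fell by 1.53 and 0.94. ANGPT1, a ligand of the receptor TEK, fell by 1.45 and 1.52, and LIFR, the receptor of leukemia inhibitory factor, by 1.22 and 0.82, at low signals (24.1 and 40.2 on the mimic arrays, 1 of them above detection, against 70.0 and 75.3 on the NT control arrays). The phosphatase PTPRR fell by 0.79 and 0.78, the ephrin EFNB2 by 0.60 and 0.57, and CHSY1, which builds chondroitin chains, by 1.08 and 0.62. Among nuclear and ribosomal factors, PNO1, which is needed to assemble the small ribosomal subunit, fell by 0.91 and 1.05, the mitochondrial ribosomal protein MRPS6 by 0.80 and 0.76, and the ubiquitin ligase subunit WSB1 by 0.90 and 0.77. AIM2, a sensor of cytosolic DNA, fell by 0.74 and 0.87. The LIFR call was lost without mimic replicate 1, NT replicate 1 or NT replicate 2 (log2 fold changes -1.59 to -0.85 over the 4 arrays left out in turn).

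**Figure D3:**
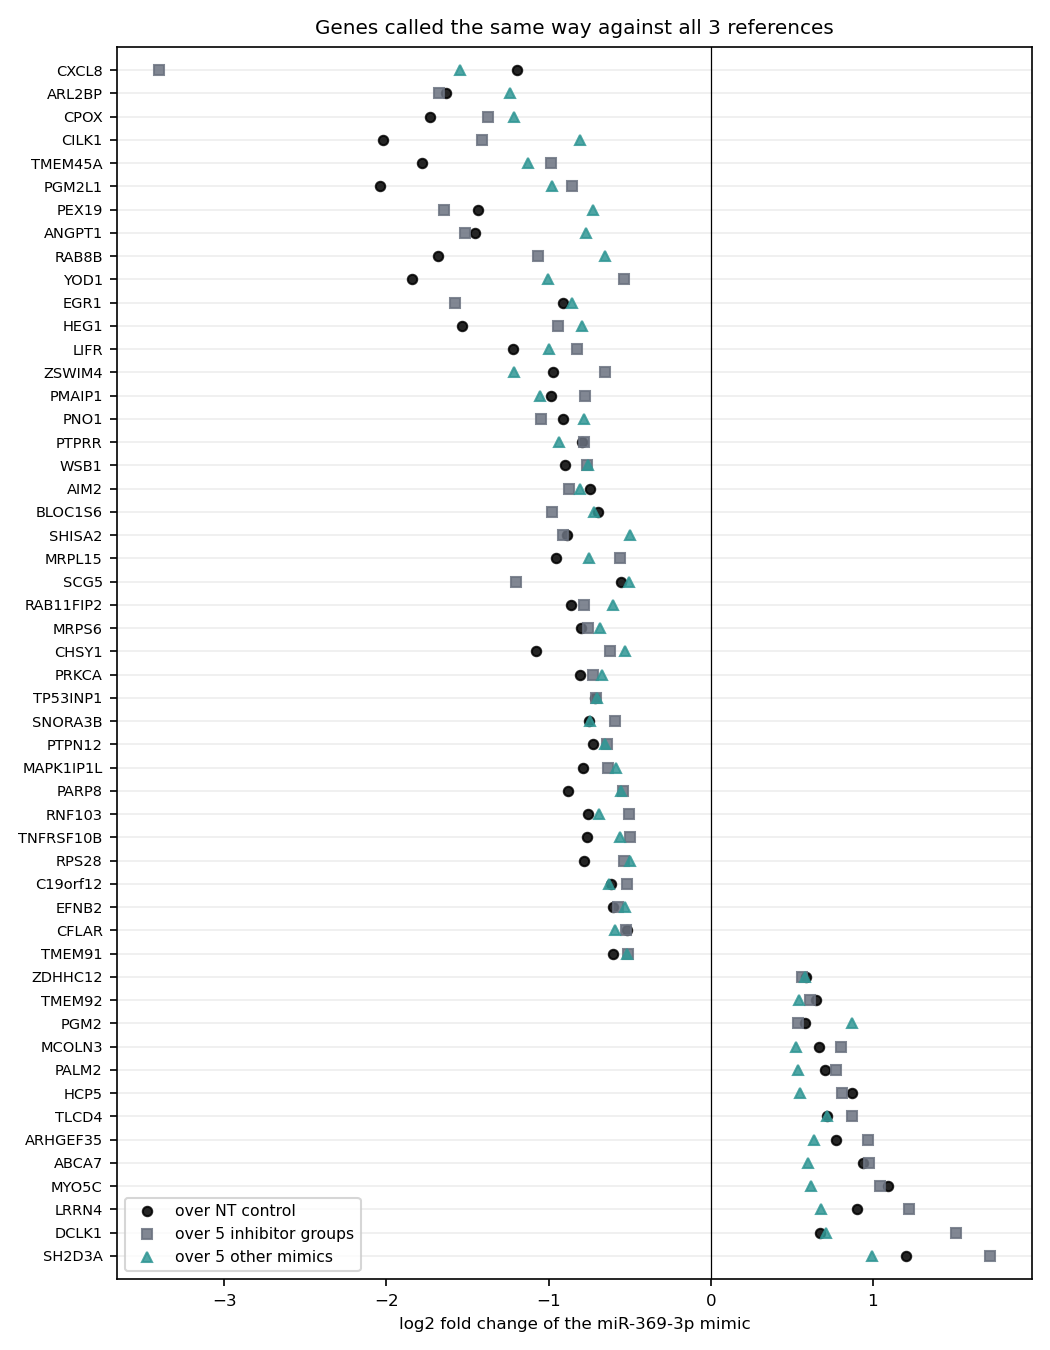
Log2 fold change of the miR-369-3p mimic (x axis) over the NT control (circles), the mean of 5 inhibitor groups (squares) and the mean of 5 other mimics (triangles) for the 39 genes that fell and the 13 that rose against all 3. CXCL8 reached -3.40 against the inhibitor groups, and SH2D3A was the highest at 1.72 against the same groups.

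The 13 genes that rose against all 3 sets moved less. SH2D3A, which encodes an adaptor with an SH2 domain, gave 150 and 148 on the mimic arrays, against 60.1 and 69.9 on the NT control arrays and 36.5 to 55.8 over the inhibitor groups (log2 fold change 1.20 against the NT control, SE 0.20, limma adjusted p = 0.00133, and 1.72 against the inhibitor groups). MYO5C, a myosin that carries vesicles in epithelial cells, gave 149 and 184 on the mimic arrays, against 72.3 and 83.7 on the NT control arrays, and rose by 1.09. The lipid transporter ABCA7 rose by 0.94, the membrane protein gene LRRN4 by 0.90, the HLA-region long noncoding RNA HCP5 by 0.87 and ARHGEF35 by 0.77. PGM2, a phosphoglucomutase related to PGM2L1, rose by 0.58 and thus moved the other way from PGM2L1. The remaining 6 were TLCD4, PALM2, the microtubule kinase DCLK1, the ion channel MCOLN3, TMEM92 and the palmitoyltransferase ZDHHC12, at 0.59 to 0.72. The calls of DCLK1, PALM2, TMEM92 and ZDHHC12 against the NT control were lost whichever array was left out (0.52 to 0.71 over these genes). TLCD4 lost its call without either mimic replicate or NT replicate 2 (0.50 to 0.94), MCOLN3 without mimic or NT replicate 1 (0.58 to 0.76), and PGM2 without mimic replicate 1 (0.50 to 0.66).

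Small nucleolar RNAs guide the chemical modification of ribosomal RNA, and Cajal body RNAs that of spliceosomal RNA. Of 149 such genes and their host genes among the members, 28 fell and 4 rose against the NT control (18.8% and 2.68%, beside 3.22% and 3.13% of all member genes), with a median log2 fold change of -0.13. SCARNA18 gave 98.8 and 111 on the mimic arrays, against 777 and 685 on the NT control arrays (log2 fold change -2.80, SE 0.26, limma adjusted p = 8.43e-06), and SNORA12 gave 203 and 224, against 1281 and 1078 (-2.46). SCARNA20 and SNORA79 were detected on neither mimic array. SCARNA20 was at least 4.88-fold lower, and SNORA79 at least 3.76-fold lower. SCARNA14, SNORA23, SCARNA11 and SCARNA8 fell by 2.25, 1.85, 1.85 and 1.78, with SCARNA14, SCARNA11 and SCARNA8 detected on 1 of the 2 mimic arrays. Outside this list, TERC, the RNA template of telomerase, which carries the same kind of box motif, gave 73.1 and 75.1 on the mimic arrays, against 250 and 239 on the NT control arrays (-1.72).

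These RNAs split the 12 groups unevenly. The NT control was among the 3 highest groups for 27 of the 28 genes, the miR-127-5p mimic for 24 and the miR-544a mimic for 24, and for 19 genes these were the 3 highest. The 28 genes were chosen for lying below the NT control, which favors a high rank for it, so its rank is given as a description. SCARNA18 read 785 and 935 with the miR-127-5p mimic and 660 and 662 with the miR-544a mimic, but 74.7 to 162 over the inhibitor groups, which overlaps the miR-369-3p mimic. Against the inhibitor groups the log2 fold change was -0.14 for SCARNA18, 0.05 for SNORA12 and 0.01 for SCARNA20, none of them called, and of the 149 genes 7 fell and 0 rose (limma, median -0.14). Of the 28 genes that fell against the NT control, 1 also fell against the inhibitor groups. With 1 of the 4 arrays left out, 21 to 23 genes of the list fell.

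Most of the 15 largest increases against the NT control were likewise not called against the inhibitor groups. RRM2, the regulated subunit of ribonucleotide reductase, gave 757 and 699 on the mimic arrays, against 175 and 136 on the NT control arrays (log2 fold change 2.24, SE 0.37, limma adjusted p = 0.00155). Its inhibitor groups stood at 266 to 710, however, and against them the difference was 0.46 and not called. C3orf52 rose by 2.07, the mitochondrial ribosomal protein MRPS35 by 1.74 and the small GTPase RRAS2 by 1.66. NDUFB5, a subunit of respiratory complex I, gave 4721 and 4840 on the mimic arrays, against 1762 and 1739 on the NT control arrays, and the ribosomal protein gene RPS23 gave 1441 and 1402, against 487 and 531. Both were low in the NT control alone: the inhibitor groups read 4168 to 4819 for NDUFB5 and 1464 to 1624 for RPS23. CHST14, SELENOI, TTYH3, AMMECR1, PIGN, SFMBT1, ACSS1, ARHGAP19 and ATP9A rose by 1.36 to 1.53. Of these 15 genes, C3orf52 and ATP9A also rose against the inhibitor groups (0.78 and 0.69).

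**Figure D4:**
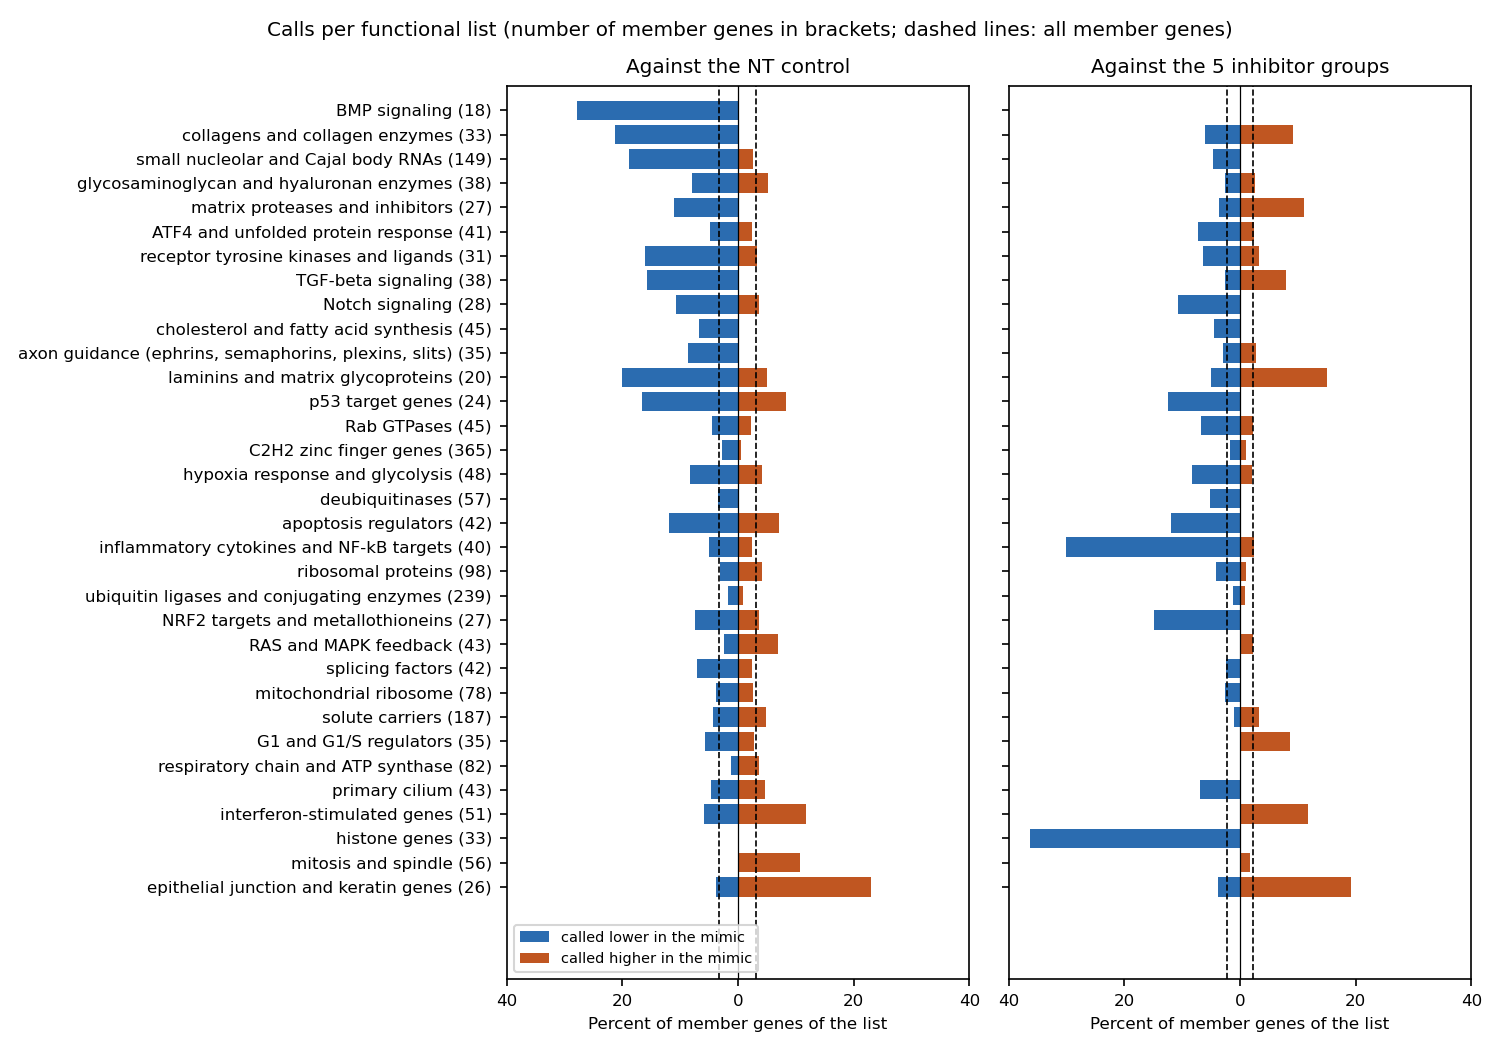
Percent of the member genes of each functional list that fell (left of 0) or rose (right of 0) with the miR-369-3p mimic, against the NT control (left panel) and against the 5 inhibitor groups (right panel), for lists with at least 3 calls in 1 direction in either comparison. Dashed lines mark the shares over all member genes. BMP signaling shows 5 of 18 genes down against the NT control and 0 against the inhibitor groups, and histone genes 0 and 12 of 33 down.

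Some genes of the extracellular matrix fell against the NT control, though most were not called. Of 33 collagens and collagen-modifying enzymes, 7 fell and 0 rose (21.2% beside 3.22% of member genes), with a median of -0.28. COL4A1, a basement membrane collagen, gave 979 and 937 on the mimic arrays, against 1477 and 1609 on the NT control arrays (log2 fold change -0.69, limma adjusted p = 0.00123), and PLOD2, which hydroxylates collagen lysines, fell by 0.64. The anchoring fibril collagen COL7A1 had a log2 fold change of -0.76 and lost its call whichever array was left out (-0.83 to -0.68). Of 20 laminins and matrix glycoproteins 4 fell and 1 rose. LAMC1, a laminin chain, gave 2083 and 2103, against 3839 and 3792 on the NT control arrays (-0.87), and the matrix genes CCN2 and TGFBI fell by 0.68 and 0.61. Among proteases and their inhibitors 3 of 27 fell and 0 rose, led by RECK (log2 fold change -1.49) and TIMP3 (717 and 753, against 1414 and 1332). The inhibitor groups gave another picture of the same genes. Against them 2 collagen genes fell and 3 rose (median 0.07), the log2 fold change of COL4A1 was 0.14, that of LAMC1 -0.12 and that of TGFBI 0.09 (limma, none called), and TIMP3 was higher with the mimic (0.54). COL7A1 was also lower against the inhibitor groups (limma adjusted p = 0.00167). With 1 array left out, 2 to 4 collagen genes fell.

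TGF-beta and BMP signals pass through paired receptor kinases to SMAD proteins and are among the controls of matrix genes. Of 38 TGF-beta signaling genes 6 fell and 0 rose, and of 18 BMP signaling genes 5 fell and 0 rose. These falls are 15.8% and 27.8% of the lists, beside 3.22% of member genes. The medians were -0.10 and -0.35. BMPR2, the type II BMP receptor, gave 488 and 477 on the mimic arrays, against 846 and 903 on the NT control arrays (log2 fold change -0.86, limma adjusted p = 0.000457). The secreted antagonist SOST gave 40.4 and 39.2, against 80.4 and 79.5 on the NT control arrays (-1.01), and LTBP2, of the latent TGF-beta binding family, gave 80.4 and 83.8, against 136 and 142 (-0.76). Each of these genes separates the 4 arrays, which the rule for naming genes of a list required. Over all member genes, 32.8% were lower on both mimic arrays than on both NT control arrays. Against the inhibitor groups 0 BMP genes were called by limma in either direction (median 0.01). At an unadjusted limma p under 0.05, 5 were lower and 2 higher, but the share of all member genes at that level was not counted. Of the TGF-beta genes 1 fell and 3 rose against the inhibitor groups, and BMPR2 was at -0.22. Against the other mimics 1 BMP gene fell and 3 rose, and 2 TGF-beta genes fell and 2 rose. BMPR2 and SOST were at 0.39 and 0.48 against the other mimics, neither called. Without 1 array, 2 to 5 BMP genes and 3 TGF-beta genes fell against the NT control. Of 31 receptor tyrosine kinases and ligands, 5 fell and 1 rose against the NT control (16.1% and 3.23%). The growth factor PDGFC, which fell, gave 374 and 368, against 594 and 550 on the NT control arrays. Against the inhibitor groups 2 genes of this list fell and 1 rose. With 1 array left out, 1 to 2 genes of this list fell against the NT control.

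Among genes of epithelial junctions and keratins more rose than fell. Of 26 such genes 6 rose and 1 fell against the NT control (23.1% and 3.85%, beside 3.13% and 3.22%), with a median of 0.29, and 5 rose and 1 fell against the inhibitor groups (median 0.27). These sets of 6 and 5 share 2 genes, and against the other mimics limma called 0 in either direction (median 0.05). At an unadjusted limma p under 0.05, 6 were higher and 3 lower, without a count over all member genes to set beside them. MPZL2, an adhesion molecule of epithelia, gave 102 and 91.2 on the mimic arrays, against 45.6 and 48.7 on the NT control arrays and 39.3 to 54.6 over the inhibitor groups (log2 fold changes 1.03 and 1.10). CGN, which encodes the tight junction protein cingulin, gave 56.8 and 49.9, against 32.7 and 32.9 on the NT control arrays (0.70), and lost its call without mimic replicate 1 (0.61 to 0.79 over the 4 arrays). The keratin genes KRT8 and KRT19, which are also luminal markers, were higher by 0.58 and 0.67, with both calls lost whichever array was left out (0.54 to 0.71). The 7 luminal markers among the members summed to 7982 and 8150 on the mimic arrays, against 5985 and 6224 on the NT control arrays. Over the inhibitor groups the sum was 5646 to 7078. Most of it came from KRT19, KRT8 and XBP1. Their means were 3808, 2258 and 1755 on the mimic arrays, against 2397, 1507 and 1977 on the NT control arrays. ERBB3 and SPDEF were detected on neither mimic array, and CDH1, which defines epithelial junctions, stayed undetected in both groups. The part of luminal-type cells in these values was not tested. In bulk RNA a change in the share of cells of a type and a change in the RNA per cell cannot be told apart. With 1 array left out, 2 to 4 genes of the list rose against the NT control.

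Of 56 genes of mitosis and the spindle, 6 rose and 0 fell against the NT control (10.7% beside 3.13%), with a median of 0.19, and 43 were higher on both mimic arrays than on both NT control arrays, beside 35% of all member genes. The kinesin KIF4A gave 1341 and 1361 on the mimic arrays, against 653 and 622 on the NT control arrays, and rose by 1.08. RACGAP1, needed for cytokinesis, gave 1377 and 1418, against 664 and 704 on the NT control arrays. The condensin subunit SMC2 rose by 0.76 and the centromere gene CENPM by 0.62, each on its brightest probe. A second SMC2 probe of similar signal was not called (0.16, limma adjusted p = 0.721), nor was a dim one (0.02). Further CENPM probes were at 0.65 and 0.71, not called. The inhibitor groups read 936 to 1411 for KIF4A, and 1 gene of the list rose and 0 fell against them (limma, median 0.16). Against the other mimics 3 rose and 0 fell (median 0.14), so that the median differed little between the 3 sets. With 1 array left out, 4 genes of the list rose. Of 52 DNA replication genes 2 rose and 2 fell, and of 35 regulators of G1 and the entry into S phase 1 rose and 2 fell.

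A small group of p53 target and apoptosis genes fell against all 3 sets. Of 24 p53 targets 4 fell and 2 rose against the NT control (16.7% and 8.33%, beside 3.22% and 3.13% of member genes), and 3 of the 4 also fell against the inhibitor groups and the other mimics. PMAIP1, the BH3-only protein NOXA, gave 108 and 123 on the mimic arrays, against 252 and 206 on the NT control arrays and 186 to 211 over the inhibitor groups (log2 fold change -0.98, limma adjusted p = 0.00308, and -0.77 against the inhibitor groups). TNFRSF10B, a receptor of the ligand TRAIL, fell by 0.76, and the stress protein gene TP53INP1 by 0.71. The fainter TNFRSF10B probes were not called (-0.87 and -0.15). Of 42 apoptosis regulators 5 fell and 3 rose against the NT control (11.9% and 7.14%), and 5 fell and 0 rose against the inhibitor groups, against which 2.16% of member genes fell. TNFSF10, which is TRAIL itself, gave 253 and 241, against 643 and 630 on the NT control arrays and 371 to 663 over the inhibitor groups (-1.37 and -0.93), and was not called against the other mimics (-0.43). CFLAR, an inhibitor of caspase 8, fell by 0.51, so genes that promote and genes that restrain death both fell. PMAIP1 lost its call without mimic replicate 1 or NT replicate 1 (-1.13 to -0.84), and TP53INP1 and CFLAR lost theirs whichever array was left out (-0.83 to -0.59 and -0.60 to -0.42). Without 1 array, 1 to 2 p53 targets and 2 to 3 apoptosis regulators fell.

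Of 40 inflammatory cytokine and NF-kB target genes, 2 fell and 1 rose against the NT control, but 12 fell and 1 rose against the inhibitor groups (medians -0.03 and -0.29) and 8 fell and 0 rose against the other mimics (median -0.22). Over all member genes 2.16% fell against the inhibitor groups and 2.38% against the other mimics. CXCL8, a chemokine that attracts neutrophils, gave 104 and 89.8 on the mimic arrays, against 226 and 216 on the NT control arrays (log2 fold change -1.19, SE 0.23, limma adjusted p = 0.00411). CXCL8 was lowest with the miR-369-3p mimic among all 12 groups. Its fainter probe was not called against the NT control (-0.34), and the brighter one lost its call against the NT control without mimic replicate 2 (-1.30 to -1.09 over the 4 arrays). The inhibitor groups fell into 2 kinds. CXCL8 gave 4939 and 3788 with the miR-135a inhibitor, 2197 and 1781 with the miR-369-3p inhibitor and 2377 and 2200 with the miR-410 inhibitor, but 229 and 311 with the miR-544a inhibitor and 217 and 209 with the miR-655-3p inhibitor. IL6 and IL24 followed the same split. IL6 gave 192 and 167 on the mimic arrays, against 250 and 236 on the NT control arrays, and 185 to 4319 over the inhibitor groups (log2 fold changes -0.44, not called, and -2.43). IL24 gave 128 and 105, against 85.6 and 89.4 on the NT control arrays (0.41, not called, and -3.15), and IL1A was near the floor in both groups (28.3 and 30.7, against 25.1 and 27.4 on the NT control arrays). IL6, IL24 and IL1A were chosen after their values were seen.

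The early response gene EGR1, a zinc finger factor induced by growth signals, gave 174 and 153 on the mimic arrays, against 303 and 309 on the NT control arrays and 272 to 845 over the inhibitor groups, and fell by 0.91 and 1.58 (limma adjusted p = 0.00176 and 8.91e-07). It was the 1 called gene of 21 immediate early genes. Of 51 interferon-stimulated genes 6 rose and 3 fell against the NT control (11.8% and 5.88%, beside 3.13% and 3.22% of member genes). Against the inhibitor groups 6 rose and 0 fell, beside 2.33% of member genes that rose, with 3 genes in both sets of 6. Against the other mimics 1 rose and 3 fell (median -0.07). IFIT1, which binds foreign RNA ends, gave 1320 and 1313, against 716 and 695 on the NT control arrays and 521 to 926 over the inhibitor groups (0.90 and 0.87). OASL and ISG15 rose by 0.88 and 0.74 against the NT control, and were not called against the inhibitor groups (0.27 and 0.20). With 1 array left out, 4 to 5 genes of the list rose.

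Histone genes showed no call against the NT control by limma among 33 members, with a median of 0.18 and 17 of them higher on both mimic arrays than on both NT control arrays (beside 35% of all member genes). At an unadjusted limma p under 0.05, 5 were higher and 0 lower, a level at which all member genes were not counted. SAM, the test of the study's methods, called 2 higher. Against the inhibitor groups 12 fell and 0 rose (median -0.41). H4C8, chosen after its values were seen, gave 123 and 109 on the mimic arrays, against 93.2 and 85.8 on the NT control arrays and 125 to 307 over the inhibitor groups. Both the mimic and the NT control were thus at or below the lowest inhibitor group.

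Few genes of the machinery that microRNAs use were called. Of 25 genes of microRNA processing and silencing, 2 fell and 0 rose (8% and 0%, beside 3.22% and 3.13% of member genes). AGO2, the slicing Argonaute, gave 1023 and 1302 on the mimic arrays, against 1804 and 1829 on the NT control arrays (log2 fold change -0.65, limma adjusted p = 0.0416), lost its call whichever array was left out (-0.83 to -0.48) and did not differ by limma from the inhibitor groups (0.06, adjusted p = 0.87). Some larger lists are given here beside the 3.22% of member genes that fell and the 3.13% that rose. Of 98 ribosomal protein genes 3 fell and 4 rose (3.06% and 4.08%). Of 78 mitochondrial ribosome genes 3 fell and 2 rose (3.85% and 2.56%). Of 82 genes of the respiratory chain and ATP synthase 1 fell and 3 rose (1.22% and 3.66%). Among 187 solute carriers 8 fell and 9 rose (4.28% and 4.81%). Among 365 zinc finger genes of the C2H2 kind 10 fell and 2 rose (2.74% and 0.548%), so that rises were rarer than over all member genes. No gene was called by limma among 41 genes of translation initiation and elongation, of which 2 were called lower by SAM. At an unadjusted limma p under 0.05, 6 were lower and 1 higher, again without a count over all member genes. The Wnt receptor FZD6 (30.0 and 38.7, against 147 and 92.5 on the NT control arrays, log2 fold change -1.77) was the 1 gene of 37 of its pathway that fell, with 2 that rose.

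The miR-655-3p mimic, which shares the sequence run shown above, was compared with the miR-369-3p mimic directly. Of member genes, 271 were lower and 442 higher with the miR-369-3p mimic (2.37% and 3.86%), and 1048 of all tested probes differed, 434 lower and 614 higher (1.9% and 2.69%). That count was 598 and 596 without mimic replicate 1 and 2. The genes called against all 3 sets were chosen by values on these same miR-369-3p mimic arrays, with miR-655-3p among the other mimics. That choice favors a lower value here for the 39 that fell and a higher one for the 13 that rose. Of the 39 genes that fell against all 3 sets, 9 were lower and 1 higher with the miR-369-3p mimic than with the miR-655-3p mimic, and 29 were not called. Of the 13 genes that rose against all 3 sets, 5 were lower and 0 higher with the miR-369-3p mimic, and 8 were not called. Among these 5, MYO5C gave 149 and 184, against 379 and 376 with the miR-655-3p mimic. CILK1 gave 342 and 327 with the miR-369-3p mimic, against 388 and 413 with the miR-655-3p mimic (difference -0.26, SE 0.14, limma adjusted p = 0.395), and YOD1 gave 296 and 261, against 256 and 296 (0.01, SE 0.11). CXCL8 and EGR1 differed: CXCL8 gave 104 and 89.8, against 307 and 289 with the miR-655-3p mimic (-1.62), and EGR1 gave 174 and 153, against 584 and 555 (-1.80). TGFBR2 and HEG1 were higher with the miR-369-3p mimic, by 0.66 and 1.07, with HEG1 at 339 and 419, against 158 and 205 with the miR-655-3p mimic. Of the 26 epithelial genes 5 were lower and 2 higher with the miR-369-3p mimic (median -0.14). MPZL2 gave 102 and 91.2, against 467 and 410 with the miR-655-3p mimic (-2.18), and CGN gave 56.8 and 49.9, against 194 and 180 (-1.81), while KRT8 and KRT19 were not called (-0.20 and -0.22).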

How the data were processed

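The authors deposited the mean bead signal intensity of each probe before background subtraction and normalization, with a deposited detection p-value for each. They also deposited log2 values, background-subtracted and quantile normalized with BeadStudio. Here the intensities were background-corrected with levels inferred from the detection p-values, offset by 16, quantile normalized and log2 transformed (neqc, limma 3.58.1, R 4.3.3). The signals given are 2 to the power of these values. Probes detected on both arrays of any of the 12 groups were tested, and limma fitted 1 model of 12 group means to 24 arrays. The methods' own test, Significance Analysis of Microarrays (SAM), was an alternative, as were other backgrounds, scalings, filters, references and left-out arrays. Of 47309 probes, 30109 carry 1 symbol in the platform annotation, 8 several and 17192 none. "At least" folds set an undetected group at the lowest detected signal of each array. Where probes of a gene disagree, the brightest was used. The procedure was tested on simulated data. Members and gene lists were chosen with earlier results of these data known. Genes were named by rule: 4 candidates, the 15 lowest and 15 highest, up to 15 per direction called against all 3 references, and up to 4 called members per list. Replicate numbers were not taken to pair the arrays. Figures used matplotlib 3.10.9.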

Additional observations from a re-analysis of the deposited data

Results flagged for a closer look

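Of the 93 named genes, 25 were picked out because limma's direct comparison found that they differed between the miR-369-3p and miR-655-3p mimics. Over all member genes, 2.37% were lower and 3.86% higher with the miR-369-3p mimic in that comparison. Most named genes were chosen by their values on the miR-369-3p mimic arrays, which favors such differences. The log2 difference, miR-369-3p mimic minus miR-655-3p mimic, was below 0 for 19 of these 25 genes. It was -2.18 for MPZL2, -1.81 for CGN, -1.80 for EGR1, -1.62 for CXCL8, -1.41 for SH2D3A, -1.34 for TMEM45A, -1.19 for MYO5C, -1.17 for ATP9A, -0.95 for ARHGEF35, -0.88 for TLCD4, -0.79 for MCOLN3, -0.76 for PNO1, -0.64 for IL24, -0.64 for PTPRR and -0.58 for C3orf52. Among small nucleolar and Cajal body RNAs it was -1.08 for SCARNA18, -1.05 for SNORA12, -0.88 for SNORA23 and -0.77 for SNORA79. It was above 0 for 3 genes of TGF-beta and BMP signaling, at 0.60 for LTBP2, 0.63 for SOST and 0.66 for TGFBR2, and for TGFBI (0.71), HEG1 (1.07) and COL7A1 (1.11).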

How the results depend on the processing

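With 2 arrays a group, precision rests on a spread pooled over 12 groups, and dim probes near the floor of the normalized signal are the least certain. Against the NT control 630 probes fell and 527 rose, 67 fell and 27 rose against all 3 sets, and 1048 differed from the miR-655-3p mimic. In the same order these counts were 304, 260, 29, 3 and 547 with no background correction and 139, 194, 13, 16 and 435 under median scaling. Those that rose against all 3 sets were 15 with plain background subtraction, 17 in the authors' table and 10 with an offset of 50. Fitting only the compared arrays gave 1000 lower and 859 higher, and SAM gave 1160 and 971, with 602 differing from the miR-655-3p mimic. Leaving out 1 array gave 229 to 292 lower, 238 to 280 higher, 32 to 51 and 11 to 13 against all 3 sets, and 596 to 983 against the miR-655-3p mimic. No filter (529 and 462), a detection p of 0.01 (678 and 550), only the members (677 and 553) and leaving out the miR-544a mimic arrays, chosen after seeing the data (689 and 611), moved the counts against the NT control by under 1.5 times. Arrays with the same replicate number were not shown to pair (correlation of deviations 0.0633). With a replicate block the counts were 615, 514, 66, 28 and 1040, and of the 93 named genes TMEM92 lost its call. With the inhibitor groups as the reference 398 probes fell, and with the other mimics 416 fell and 333 rose. Signs turned with the inhibitor groups as reference for AGO2 (0.063), CDH11 (0.17), COL4A1 (0.14), PDGFC (0.020), SCARNA20 (0.014), SCARNA8 (0.063), SNORA12 (0.049), TGFBI (0.089), TGFBR2 (0.67), TIMP3 (0.54), H4C8 (-0.85), IL1A (-2.30), IL24 (-3.15), RPS23 (-0.095) and SELENOI (-0.084). With the other mimics as reference they turned for BMPR2 (0.39), CDH11 (0.052), SOST (0.48), TGFBI (0.15), TGFBR2 (0.67), TIMP3 (0.29), ACSS1 (-0.063), C3orf52 (-0.084), CGN (-0.44), CHST14 (-0.024), H4C8 (-0.54), IL1A (-0.55), IL24 (-0.31), OASL (-0.34), RPS23 (-0.079) and TTYH3 (-0.10). The cause of these changes was not tested. No other setting turned the sign of a named gene. Of the 88 named genes called against the NT control, 45 were not called the same way against the inhibitor groups and 37 against the other mimics. Calls were lost for 29 under median scaling, 18 with no background correction, 10 with plain subtraction, 9 in the authors' table, 7 with no filter, 3 with an offset of 50 and 13 to 17 without 1 array.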
